A study of Drosophila melanogaster with 4 samples.

Results

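The proteasome subunits were taken as all genes whose symbol starts with Prosalpha or Prosbeta, or is Rpn or Rpt followed by a number. This gave 47 of the 14240 genes counted. Of these, 32 are the canonical subunits: 7 of the alpha ring, 7 of the beta ring, 6 ATPases (Rpt) and 12 non-ATPase subunits (Rpn). The other 15 carry R or T after the subunit number, alone or with a copy number, and are the testis-type paralogs. The rule uses names only and no measured value, but it was set with earlier results of these data known.

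The proteasome degrades proteins tagged with ubiquitin. Its barrel-shaped core particle has outer alpha rings, which form the gate, and inner beta rings, which hold the protease sites. A regulatory particle caps the core: its Rpt ATPases unfold the substrate and push it into the core, and its Rpn subunits bind and remove ubiquitin. In *Drosophila*, gene duplication has given many subunits a second copy that is used in the male germline, where it replaces or joins the canonical subunit during sperm formation.

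Cells of wor-GAL4>UAS-mCD8-GFP animals were sorted for GFP. The labels give brain as the tissue of all libraries, whereas the study's methods name embryos and larval brains as the material dissociated, so a difference in source tissue cannot be told apart from stage. The driver follows *worniu*, a gene of neural stem cells (NSCs), and every library carries the same transgenes, so neurons, glia and other cells in the data are those that still held GFP or passed the gate. There were 2 libraries from stage 17 embryos, when most NSCs are quiescent. Another 2 came from larvae at 24 h after larval hatching (ALH), the study's reactivated stage, at which it still shows quiescent abdominal NSCs. All were 10x 3′ libraries of version 3 chemistry except the first of stage 17, which was of version 2. The library names call the 2 of each stage biological replicates, and the number of animals behind each was not given in the sources used here.

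Of 4152 called cells, 3567 passed the limits on detected genes and on the mitochondrial share that the study applied, and 13 barcodes occurred in more than 1 library. The stage 17 libraries held 2219533 and 15290553 UMIs (unique molecular identifiers, each a counted transcript) and the larval ones 53458971 and 33037729. Clusters were named from marker genes. The NSC-like class had 27 cells in each embryonic library and 513 and 337 in the larval ones, and the neuron-like class 217, 673, 190 and 281 in the same order. In the NSC-like sums the 5 NSC markers (*dpn*, *wor*, *ase*, *mira*, *insc*) were all present, at 32.5 and 13.9 UMIs per 10000 in embryonic and 8.46 and 7.84 in larval libraries. The 6 neuron markers reached 10.4 and 18.5 per 10000 in the stage 17 NSC-like sums, 2.01 and 2.03 at 24 h ALH, and 137 to 175 in the neuron-like sums. The median NSC-like cell held 2166 and 3111 UMIs at stage 17 against 72243 and 61167 at 24 h ALH. Stage and depth per cell cannot be told apart in this design. Thinning cells to the same number of UMIs evens out the counts and also gives each cell equal weight. It does not remove other differences between shallow and deep cells.

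Canonical subunits were a larger share of the transcripts at 24 h ALH than at stage 17 in NSC-, neuron- and glia-like cells alike. They were also a larger share of NSC-like than of neuron-like transcripts at both stages. In NSC-like sums they made up 40.9 and 33.3 of every 10000 UMIs at stage 17, a mean of 37.1 ± 5.32 (SD, n = 2), and 77.0 and 78.5 at 24 h ALH, a mean of 77.7 ± 1.09. The ratio of the means was 2.09. In neuron-like sums they made up 19.2 and 11.6 at stage 17, a mean of 15.4 ± 5.40, and 33.2 and 32.0 at 24 h ALH, a mean of 32.6 ± 0.790, a ratio of 2.12. The libraries of the 2 stages did not overlap in either class.

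Glia-like cells (36 in each stage 17 library, 16 and 36 at 24 h ALH) stood at 13.0 and 10.8 per 10000 in embryonic libraries and at 47.5 and 39.0 in larval ones. Progenitor-like cells, named from *pros*, *nerfin-1* and other markers with little *dpn*, stood at 78.7 and 75.8 at 24 h ALH, close to the NSC-like sums of the same libraries. At stage 17 that class held only 5 and 2 cells, at 48.5 and 54.0, too few for a comparison of the stages. Sums over the members were not tested. With 2 libraries a group, the smallest two-sided p of an exact permutation test is 0.333.

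**Figure D1:**
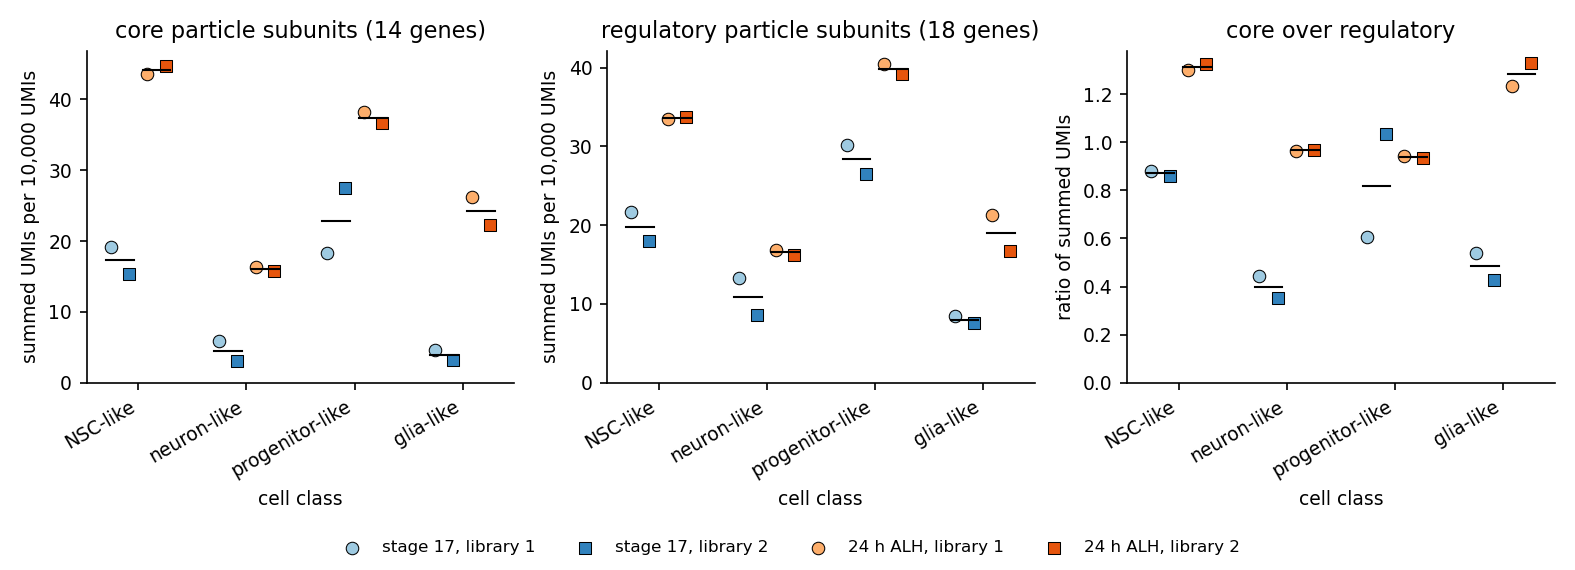
Summed UMIs of the 14 core particle subunits (left), of the 18 regulatory particle subunits (middle) and the ratio of the sums (right), per library and cell class; the bar is the mean of 2 libraries. At 24 h ALH the core sum of NSC-like cells was 43.5 and 44.8 per 10000 UMIs against 19.1 and 15.4 at stage 17, and the neuron-like ratio was 0.963 and 0.969 against 0.443 and 0.354. The progenitor-like points of stage 17 rest on only 5 and 2 cells.

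The sums of the core and of the regulatory subunits were also taken apart. The core sum was higher at 24 h ALH than at stage 17 by a ratio of 2.55 in NSC-like, 3.59 in neuron-like and 6.21 in glia-like cells. The regulatory sum was higher by ratios of 1.69, 1.52 and 2.37 in the same classes. The NSC-like core ratio was 4.66 with cells chosen by gene gates (UMIs of *dpn* and *wor*), 1.88 with cells thinned to 1000 UMIs and 1.85 with equal weight per cell. Gated NSC-like cells of stage 17 were deeper, at medians of 8066 and 21723.5 UMIs, against 2166 and 3111 for those named by cluster. The 6 neuron markers stood at 34.8 and 104 per 10000 in the stage 17 glia-like sums and at 13.6 and 12.3 in the larval ones, beside 118 and 72.5 against 64.0 and 29.0 for the 6 glia markers, and their part in the glia-like ratios was not tested. UMIs of the core subunits divided by those of the regulatory subunits were 0.882 and 0.860 in the stage 17 NSC-like sums and 1.30 and 1.33 at 24 h ALH. In neuron-like sums the same quotient was 0.443 and 0.354 in embryonic and 0.963 and 0.969 in larval libraries, and in glia-like sums 0.541 and 0.429 against 1.23 and 1.33. The stages did not overlap in any of these classes. With every cell thinned to 1000 UMIs the neuron-like means were 0.405 ± 0.0492 and 0.956 ± 0.0571, as in the full sums, whereas the NSC-like means came closer together, at 1.14 ± 0.134 and 1.27 ± 0.0349.

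The first comparison asked which subunits differ in NSC-like cells between stage 17 and 24 h ALH, whatever the state of each cell. In NSC-like cells 27 of the 32 canonical subunits fell below their 24 h ALH level at stage 17 and none rose, in edgeR's quasi-likelihood test with Benjamini-Hochberg adjustment over 7245 genes. Of all genes tested, 17.0% were called lower and 17.4% higher. The median log2 fold change (stage 17 over 24 h ALH) of the canonical subunits was -1.32, against -0.19 over all genes. All 32 passed the filter on low counts, *Prosalpha1* only through its 24 h ALH sums. Of them 29 had both stage 17 libraries below both 24 h ALH libraries in CPM, the UMIs of a gene per 1000000 UMIs of the sum. Of all tested genes 36.4% did. *Prosalpha1*, without a UMI at stage 17, is counted in the 32, the 29 and the median, and its place there is not a result. Each stage 17 value rests on 5 to 91 UMIs per subunit and library, leaving out *Prosalpha1*. Fewer were called without either 24 h ALH library, with the median at -1.23 each time. With cells thinned to 1000 UMIs 2 calls were left, where the stage 17 sums held 98 and 116 UMIs of all canonical subunits. There 27 of 31 tested still lay below 0, with a median of -0.96, against -0.21 over all genes. The thinned sums were 41.9 ± 1.51 per 10000 at stage 17 and 74.9 ± 0.509 at 24 h ALH. The share of all genes called under these alternatives is not given, so the lost calls are not a result about the members. Without the NSC-like cluster led by the S-phase genes *PCNA* and *CycE*, 26 of 31 were called lower.

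The alpha ring had the lowest median of the 4 groups of subunits. Of its 7 subunits 6 fell, with a median of -2.19 over all 7. Leaving out *Prosalpha1*, the range ran from -2.69 for *Prosalpha6* to -1.87 for *Prosalpha2*. *Prosalpha6* stood at 72.1 and 61.2 CPM at stage 17 and at 371 and 348 CPM at 24 h ALH in NSC-like sums, a log2 fold change of -2.69 ± 0.23 (SE, edgeR adjusted p = 0.00048). *Prosalpha5* stood at 92.6 and 105 CPM against 390 and 419 CPM (-2.20 ± 0.22). *Prosalpha4* stood at 51.5 and 98.7 CPM against 318 and 327 CPM (-2.12 ± 0.27). In all 3 genes the stage 17 libraries lay far under the 24 h ALH libraries, which differed little from each other.

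*Prosalpha1* (FBgn0263121, chromosome 2R, 7827303 to 7828678, minus strand) was the exception. The stage 17 NSC-like sums held no UMI of it and the larval ones held 77 and 51, that is 2.10 and 2.52 CPM. All called cells together held 168. The stage 17 sums, of 97152 and 293880 UMIs, were too small to tell such a level from 0. Since *Prosalpha1* passed the filter only through the group in which it was higher, no test of it is given. *Prosalpha1R* (FBgn0050382), a copy close by on the same strand that the files list under another name and the rule does not include, had 0 UMIs in all cells. Both counts are uncertain, since reads shared by near-identical copies may be dropped in counting, and this was not tested.

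In the beta ring 6 of 7 subunits fell, with a median of -1.40. The protease subunits were among them. *Prosbeta1*, which cuts after acidic residues, stood at 113 and 163 CPM at stage 17 and at 385 and 407 CPM at 24 h ALH (-1.63 ± 0.24, edgeR adjusted p = 0.0026). *Prosbeta2*, which cuts after basic residues, stood at 144 and 136 CPM against 299 and 303 CPM (-1.33 ± 0.20). *Prosbeta5*, which cuts after hydrophobic residues, stood at 226 and 109 CPM against 331 and 327 CPM (-1.40 ± 0.26). The stages were apart in each of the 3, although the stage 17 libraries of *Prosbeta5* were themselves far from each other. Of the beta subunits without a protease site, *Prosbeta6* stood at 124 and 74.9 CPM against 300.0 and 312 CPM (-1.995 ± 0.24). *Prosbeta7* stood at 134 and 64.7 CPM against 181 and 180 CPM (-1.32 ± 0.27, edgeR adjusted p = 0.0088). On thinned cells none of the 13 core subunits tested was called, alpha ring included, and *Prosbeta7* stood at 0.08 (edgeR adjusted p = 0.94).

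*Prosbeta3* (FBgn0026380, chromosome 3R, 9005313 to 9006226, minus strand), a structural subunit of the beta ring, did not follow. It stood at 473 and 310 CPM in stage 17 NSC-like sums and at 340 and 352 CPM at 24 h ALH, so that the 24 h ALH values lay between the stage 17 values (-0.13 ± 0.20, edgeR adjusted p = 0.64). Its stage 17 counts, 46 and 91 UMIs, came from 13 and 19 of the 27 cells, and the cell with most held 19.6% and 19.8% of them. It overlaps no gene on its own strand.

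**Figure D2:**
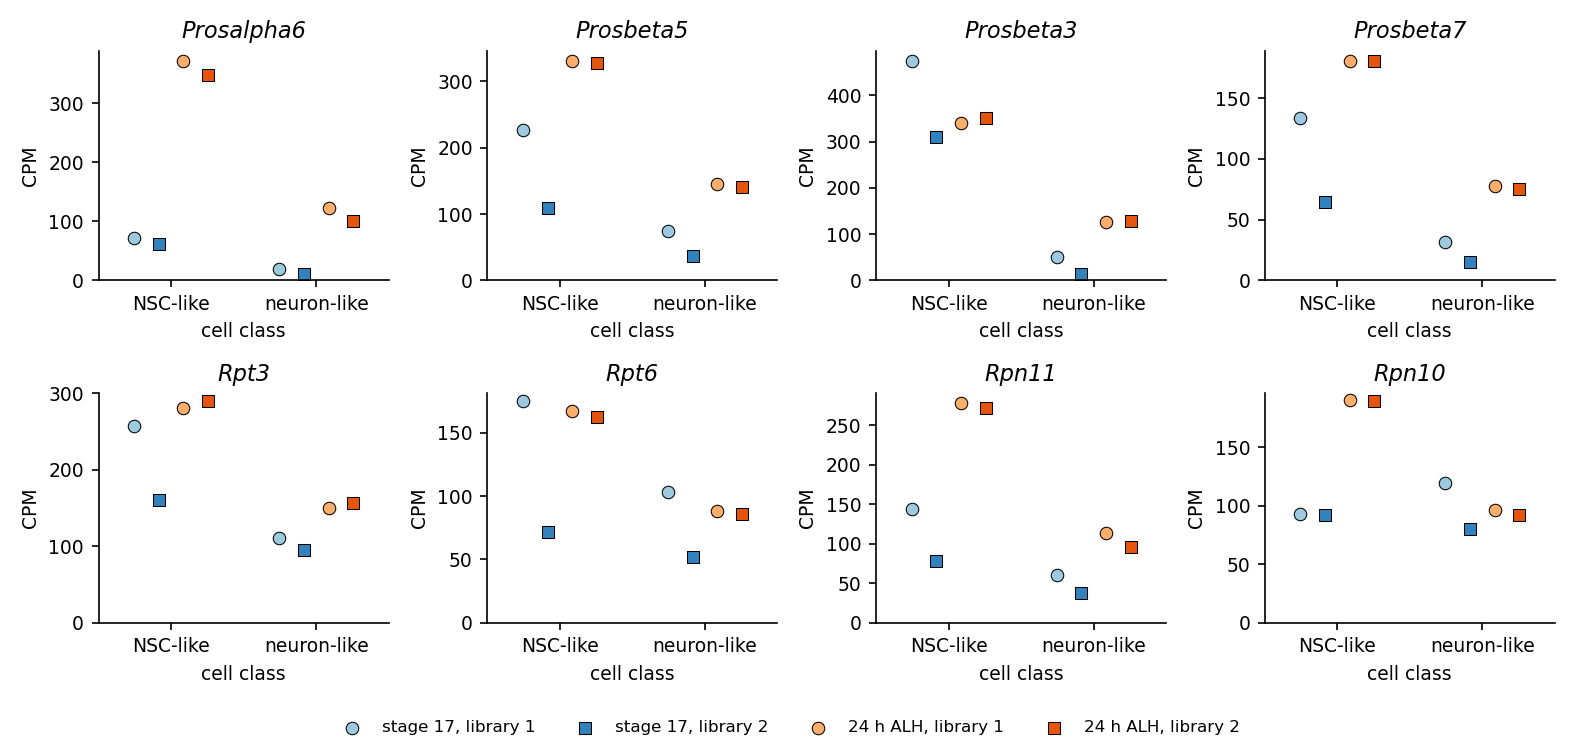
Level in CPM of 8 canonical subunits in the NSC-like and neuron-like sums of each library. *Prosalpha6* at stage 17 was at 72.1 and 61.2 CPM in NSC-like sums against 371 and 348 CPM at 24 h ALH, while *Prosbeta3* at stage 17 was at 473 and 310 CPM in NSC-like sums and at 49.9 and 13.8 CPM in neuron-like sums.

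All 6 ATPases fell in NSC-like cells. The median was -0.90 and the range -1.15 (*Rpt2*) to -0.68 (*Rpt1*). *Rpt2* stood at 124 and 78.3 CPM against 180 and 170 CPM (-1.15 ± 0.23). *Rpt3* stood at 257 and 160 CPM against 280.5 and 290.3 CPM (-0.80 ± 0.21). *Rpt5* stood at 61.8 and 64.7 CPM against 101 and 103 CPM (-0.88 ± 0.25). These 3 had both stage 17 libraries below both at 24 h ALH. *Rpt6* (FBgn0020369) did not: it stood at 175 and 71.5 CPM at stage 17 and at 167 and 163 CPM at 24 h ALH, so that only the second stage 17 library lay below them, and it was called at -0.93 ± 0.29 (edgeR adjusted p = 0.045). *Rpt1* lies within another gene on the same strand, *CG17985*, so its count is uncertain.

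Of the 12 non-ATPase subunits 9 fell, with a median of -1.13, and *Rpn3*, *Rpn7* and *Rpn13* did not pass the test. *Rpn11*, the deubiquitinase that strips ubiquitin from substrates, stood at 144 and 78.3 CPM at stage 17 and at 278 and 271 CPM at 24 h ALH (-1.71 ± 0.24, edgeR adjusted p = 0.0025). Its partner *Rpn8* stood at 113 and 81.7 CPM against 174 and 184 CPM (-1.19 ± 0.22). The scaffold subunit *Rpn2* stood at 51.5 and 74.9 CPM against 178 and 187 CPM (-1.62 ± 0.25). All 3 were called and had separate stages.

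The ubiquitin receptors bind the tag on substrates. *Rpn10* stood at 92.6 and 91.9 CPM at stage 17 and at 191 and 189 CPM at 24 h ALH (-1.25 ± 0.21, edgeR adjusted p = 0.0047). *Rpn1*, which also binds ubiquitin-like proteins, stood at 82.3 and 68.1 CPM against 128 and 135 CPM (-1.08 ± 0.24). *Rpn13* stood at 144 and 129 CPM against 168 and 169 CPM (-0.54 ± 0.19, edgeR adjusted p = 0.067). For all 3 receptors the stages did not overlap, and the test called the first 2.

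The remaining lid subunits named here, which hold the regulatory particle's outer part together, gave values in the same range. *Rpn6* stood at 103 and 109 CPM against 173 and 180 CPM (-0.92 ± 0.21) and *Rpn12* at 61.8 and 81.7 CPM against 177 and 181 CPM (-1.43 ± 0.24). *Rpn3* stood at 61.8 and 88.5 CPM against 125 and 111 CPM (-0.74 ± 0.26, edgeR adjusted p = 0.064). *Rpn6* and *Rpn12* were called and *Rpn3* was not, although its stages were apart.

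The stage 17 NSC-like cells were not uniform. In the cluster led by *PCNA* and *CycE* the canonical subunits made up 87.9 of every 10000 UMIs over 11 cells from the second stage 17 library, and 53.6 over 3 cells from the first. The largest other NSC-like cluster held 12 cells of the second library at 23.8 per 10000 and 19 cells of the first library at 34.2. The third, led by *erm*, held 4 cells of the second library at 30.4 and 5 of the first at 49.2. These 4 cells held 125078 of the 293880 UMIs in the NSC-like sum of the second library, and the 11 cells of the *PCNA*-led cluster 30959. At 24 h ALH the same clusters, in this order, stood at 82.0 and 85.0, at 67.0 and 68.5, and at 71.4 and 67.7. These clusters were built from expression in the same cells, so the difference between them is a description and was not tested. With every NSC-like cell given equal weight, the stage 17 mean was 44.2 ± 7.61 per 10000 and the 24 h ALH mean 75.3 ± 0.884.

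**Figure D3:**
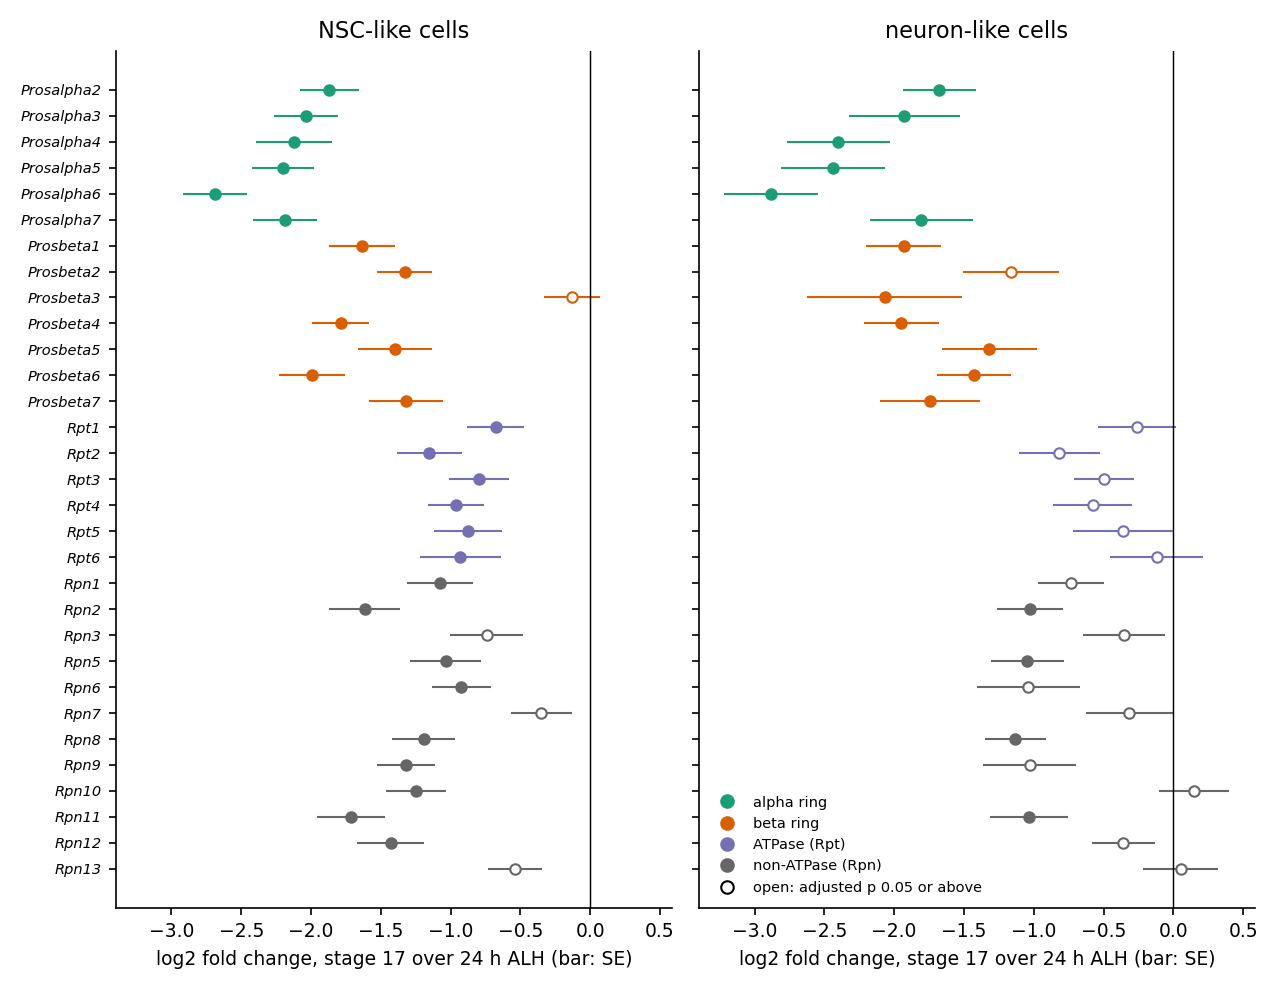
Log2 fold change of the 31 canonical subunits other than *Prosalpha1*, stage 17 over 24 h ALH, in NSC-like (left) and neuron-like cells (right); the bar is the SE and open points did not pass an adjusted p of 0.05. Alpha subunits ran from -2.69 to -1.87 in NSC-like and from -2.88 to -1.68 in neuron-like cells, and ATPases from -1.15 to -0.68 and from -0.82 to -0.12.

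The same comparison in neuron-like cells asked whether the stage difference was also present in the neurons sorted beside the NSCs. Of the 31 canonical subunits tested, 16 fell and none rose, while 18.2% of all 7282 genes were called lower and 11.7% higher. The median of the members was -1.04 and that of all genes -0.01. *Prosalpha1* did not pass the filter. Both stage 17 libraries lay below both 24 h ALH libraries in 26 of 32 canonical subunits, with the untested *Prosalpha1* among the 26. Of the genes tested 39.3% did so. Of the core subunits tested 12 of 13 fell (median -1.93), and of the regulatory subunits 4 of 18 (median -0.54), namely *Rpn2*, *Rpn5*, *Rpn8* and *Rpn11*. All 13 core subunits lay below 0 under each alternative that was run. Without the first stage 17 library (version 2 chemistry) 29 subunits were called, 16 of them regulatory, and with gene gates 9 regulatory subunits were called. Without the first and second 24 h ALH libraries 8 and 5 were left, each of them core subunits.

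*Prosalpha6* stood at 19.96 and 10.9 CPM in stage 17 neuron-like sums and at 123 and 101 CPM at 24 h ALH (-2.88 ± 0.34, edgeR adjusted p = 0.0069). *Prosalpha5* stood at 38.3 and 17.8 CPM against 151 and 150 CPM (-2.44 ± 0.37), and *Prosalpha4* at 28.3 and 13.2 CPM against 105 and 109 CPM (-2.40 ± 0.37). The first stage 17 library was the higher of the stage 17 pair in each. *Prosbeta1* stood at 41.6 and 27.1 CPM against 137 and 133 CPM (-1.93 ± 0.27), *Prosbeta5* at 74.9 and 37.5 CPM against 145 and 141 CPM (-1.32 ± 0.34) and *Prosbeta2* at 82.3 and 40.5 CPM against 146 and 136 CPM (-1.16 ± 0.34, edgeR adjusted p = 0.051). *Prosbeta7* stood at 31.6 and 15.0 CPM against 77.9 and 75.4 CPM (-1.74 ± 0.36), and *Prosbeta6* at 37.4 and 24.3 CPM against 87.0 and 83.7 CPM (-1.43 ± 0.27). Among the protease subunits only *Prosbeta2* missed the threshold.

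None of the 6 ATPases was called in neuron-like cells. *Rpt3* stood at 111 and 95.03 CPM at stage 17 and at 150 and 157 CPM at 24 h ALH (-0.50 ± 0.22, edgeR adjusted p = 0.13), and *Rpt6* at 103 and 52.1 CPM against 88.1 and 85.6 CPM (-0.12 ± 0.33). *Rpn10* stood at 120 and 79.8 CPM against 96.6 and 92.0 CPM (0.15 ± 0.25, edgeR adjusted p = 0.69) and *Rpn13* at 105 and 66.6 CPM against 90.2 and 82.4 CPM (0.05 ± 0.27). For *Rpt6*, *Rpn10* and *Rpn13* the 24 h ALH values lay between the stage 17 values. A miss of the threshold with 2 libraries does not show that the levels were the same.

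The class comparison set NSC-like against neuron-like cells of the same libraries, with the library as a block. At stage 17, 16 of 31 canonical subunits were higher in NSC-like cells and none was lower, where 18.1% of 7917 genes were called higher and 25.4% lower. The median was 0.95, against -0.24 over all genes. All 13 core subunits tested were called, with a median of 1.67, but only 3 of 18 regulatory subunits (*Rpn5*, *Rpn6* and *Rpn9*), with a median of 0.68. Both NSC-like sums lay above both neuron-like sums in 28 of the 31 subunits tested, as in 31.4% of the genes tested. Without the second stage 17 library 4 calls were left and the median was 0.49, and without the first there were 23 calls, 10 of them regulatory, and a median of 1.20. Without the *PCNA*-led cluster 9 were left, with thinned cells 8, and 10 with cells chosen by UMIs of *dpn* and *wor* or of *nSyb* in place of clusters.

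*Prosbeta3* differed most between the classes at stage 17, at 473 and 310 CPM in NSC-like against 49.9 and 13.8 CPM in neuron-like sums (3.54 ± 0.30, edgeR adjusted p = 5.7e-09). A UMI of *Prosbeta3* was found in 13 of 27 and 19 of 27 NSC-like cells and in 33 of 217 and 91 of 673 neuron-like cells of these libraries. After thinning to 1000 UMIs, which left out 3 NSC-like and 6 neuron-like cells of the first library, the shares were 25% (95% exact interval 9.77 to 46.7) and 25.9% (11.1 to 46.3) in NSC-like and 4.74% (2.30 to 8.54) and 1.63% (0.819 to 2.91) in neuron-like cells. The intervals cover counting error only and count cells, which are not replicates, so they do not test the class difference. *Prosbeta3* was the only subunit among the 2000 features used to build the clusters, so the cluster classes were not independent of it. Its class difference kept its call with cells chosen by gene gates (3.0, edgeR adjusted p = 0.0036), on thinned cells (2.76, edgeR adjusted p = 0.00015) and without either stage 17 library (4.11 and 2.82).

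*Prosalpha4* (1.94 ± 0.43), *Prosalpha6* (1.87 ± 0.42) and *Prosbeta1* (1.84 ± 0.33) followed among those named. Without the second stage 17 library none of these 3 was called, and their values were 0.43, 1.42 and 1.01. *Rpn10* at stage 17 was at 92.6 and 91.9 CPM in NSC-like and at 120 and 79.8 CPM in neuron-like sums (-0.40 ± 0.30, edgeR adjusted p = 0.31). *Rpn12* was at 61.8 and 81.7 CPM against 79.0 and 62.7 CPM (-0.23 ± 0.33). The 2 classes overlapped in both of these genes.

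At 24 h ALH all 31 canonical subunits tested were higher in NSC-like cells, where 41.7% of genes were called higher and 34.3% lower. The median was 1.49, against 0.16 over all genes, and the range ran from 0.94 (*Rpn7*) to 2.09 (*Prosbeta6*). The CPM of both NSC-like sums lay above those of both neuron-like sums for all 31 subunits tested, as in 43.4% of genes tested. With RLE scaling the median of all genes moved to -0.05 and that of the subunits to 1.27, and all 31 stayed above 0 and called. *Prosbeta6* stood at 300.0 and 312 CPM in NSC-like against 87.0 and 83.7 CPM in neuron-like sums (2.09 ± 0.18, edgeR adjusted p = 4.2e-11), *Prosalpha6* at 371 and 348 CPM against 123 and 101 CPM (1.94 ± 0.18), and *Rpn2* at 178 and 187 CPM against 67.5 and 68.5 CPM (1.68 ± 0.16). *Rpt5* stood at 101 and 103 CPM against 44.6 and 50.1 CPM (1.36 ± 0.16) and *Rpn10* at 191 and 189 CPM against 96.6 and 92.0 CPM (1.26 ± 0.17). Each pair of classes was well apart at this depth.

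**Figure D4:**
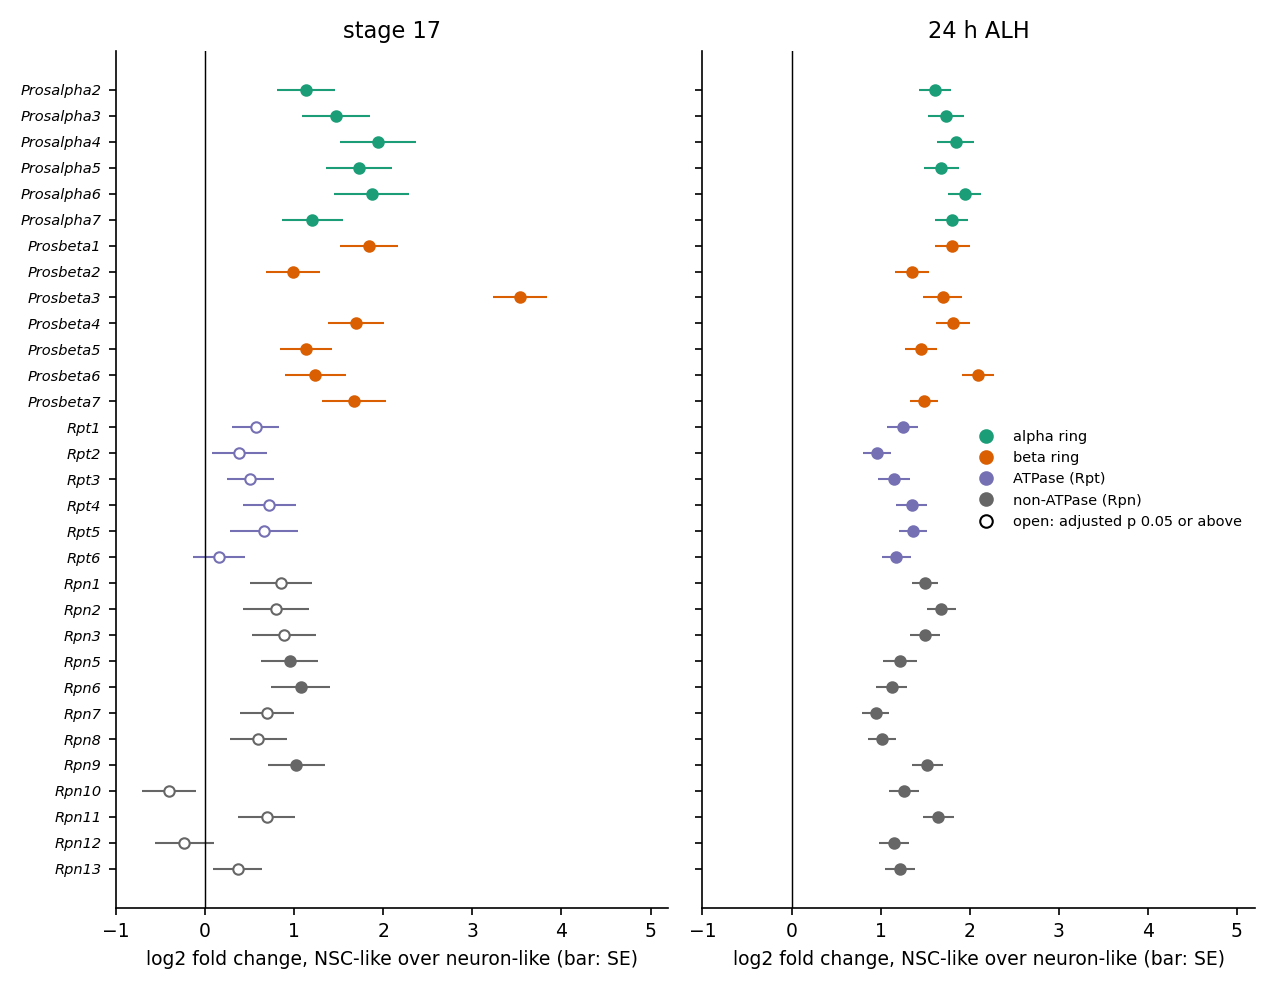
Log2 fold change of the 31 canonical subunits other than *Prosalpha1*, NSC-like over neuron-like, at stage 17 (left) and 24 h ALH (right); the bar is the SE and open points did not pass an adjusted p of 0.05. All 31 were called at 24 h ALH, between 0.94 and 2.09, and 16 at stage 17, where *Prosbeta3* stood apart at 3.54.

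The interaction of class and stage tested whether the class difference itself differed between stages. Of 31 subunits, 1 was called above 0 (a larger NSC excess at stage 17) and 3 below 0, where 8.93% and 5.72% of genes were called. The one above was *Prosbeta3* (1.84 ± 0.36, edgeR adjusted p = 0.0013). Those below were *Rpn10* (-1.66 ± 0.34, edgeR adjusted p = 0.0012), *Rpn12* (-1.38 ± 0.35, adjusted p = 0.0085) and *Rpt6* (-1.02 ± 0.32, adjusted p = 0.033), 3 subunits of the regulatory particle that were called higher in NSC-like cells at 24 h ALH and were not called at stage 17. All 18 regulatory subunits lay below 0, with a median of -0.64, against -0.12 for the core subunits and -0.16 for all genes. With RLE scaling 15 of the 18 lay below 0, the median of all genes moved to 0.11 and that of the core subunits turned to 0.18. None of the 4 was called when either 24 h ALH library was left out, or on thinned cells, where *Prosbeta3* stood at 0.99 and *Rpn10* at -2.3 (edgeR adjusted p = 0.57 and 0.12). *Rpt6* also missed the threshold with RLE scaling (adjusted p = 0.092), and *Prosbeta3* at cluster resolution 1.0 (adjusted p = 0.062).

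The 15 testis-type paralogs were low or not detected. Over all called cells 8 had 0 UMIs, which allows up to 0.0288 CPM over the 104006786 UMIs of these cells, and 1, *Prosbeta2R1*, had 1 UMI. The 15 together had 2559 UMIs, against 636714 for the canonical subunits, and *Rpt3R* alone gave 93.7% of them. *Prosbeta2R2* (6 UMIs), *Rpn12R* (6) and *Prosalpha4T2* (3) were at the limit of detection, and *Rpn12R* lies within *Sytbeta* on the same strand, so its counts are uncertain. *Rpt6R* had 48 UMIs, of which 1 and 10 came from the stage 17 libraries and 26 and 11 from those at 24 h ALH. *Rpn13R* had 96, of which 51 were in the second stage 17 library. It overlaps *rg* on the same strand, so its counts cannot be told from those of *rg*. Its lower call in NSC-like cells at 24 h ALH (-3.34 ± 1.02) is given with that limit. At that stage *Rpn13R* had a UMI in only 6 and 1 NSC-like and 4 and 8 neuron-like cells, and in none of either class after thinning. Of the 6 germline and testis markers listed (*vas*, *bam*, *nos*, *aly*, *can*, *dj*), *aly* and *dj* were at 0 in all NSC-like and neuron-like sums and 1 to 4 of the others had UMIs, at 0.0705 to 1.03 per 10000 in summed level in NSC-like sums.

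*Rpt3R* (FBgn0037742, chromosome 3R, 9754735 to 9756510, minus strand), the paralog of the ATPase *Rpt3*, was the exception. The larval NSC-like sums held 1365 and 707 of its UMIs, that is 37.2 and 35.0 CPM, and the stage 17 ones 0 and 1. The larval neuron-like sums held 10 and 1, and those of stage 17 held 0 and 1. Nearly all of its UMIs thus lay in the larval libraries, and most of them in NSC-like cells. It passed the filter on low counts only through the 24 h ALH NSC-like sums. The pooled level was 14.2 times higher at 24 h ALH than at stage 17, with a counting interval of 2.55 to 562 because of the single stage 17 UMI. That interval leaves out the spread between libraries. Since the filter chose *Rpt3R* by the group in which it was high, no test of it is given.

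A UMI of *Rpt3R* was found in 80.9% (95% exact interval 77.2 to 84.2) and 73.0% (67.9 to 77.7) of the NSC-like cells at 24 h ALH, at median depths of 72243 and 61167 UMIs, and in 4.74% and 0.356% of neuron-like cells, at 16416 and 11382. With cells thinned to 1000 UMIs the shares were 3.12% (1.79 to 5.02) and 4.45% (2.51 to 7.24) in NSC-like cells and 0 of 190 and 0 of 281 in neuron-like cells, with exact intervals up to 1.92% and 1.30%. These intervals count cells within a library, which are not replicates, so they do not test the classes against each other. Its parent *Rpt3* was found in 99.0% and 99.1% of the same NSC-like cells. The 3′ tags count 1 per transcript whatever its length, and on that scale *Rpt3R* UMIs were 13.2% and 12.1% of those of *Rpt3* in NSC-like cells, 1.78% and 0.170% in neuron-like cells, and 0.385% and 0.386% in progenitor-like cells. Progenitor-like cells therefore had little *Rpt3R*, 1 and 4 UMIs, while their canonical subunits were close to the NSC-like level. *Rpt3R* overlaps *Alg12* on the opposite strand only.

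Within the NSC-like clusters at 24 h ALH *Rpt3R* stood at 41.1 and 42.5 CPM in the *PCNA*-led cluster, at 31.4 and 25.4 CPM in the largest other one and at 14.4 and 17.5 CPM in the smallest. Outside the named classes, an unnamed cluster led by *CG12934* and *hdc* stood at 16.1 and 15.6 CPM, with a UMI in 34.8% and 22.4% of its cells, close to the smallest NSC-like cluster. An unnamed cluster led by *insb*, *nerfin-1* and *ase* stood at 5.68 and 3.65 CPM with canonical subunits at 83.9 and 83.6 per 10000, beside 82.0 and 85.0 in the *PCNA*-led cluster. Neuron-like clusters of 10 or more cells ran from 0 to 4.66 CPM.

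**Figure D5:**
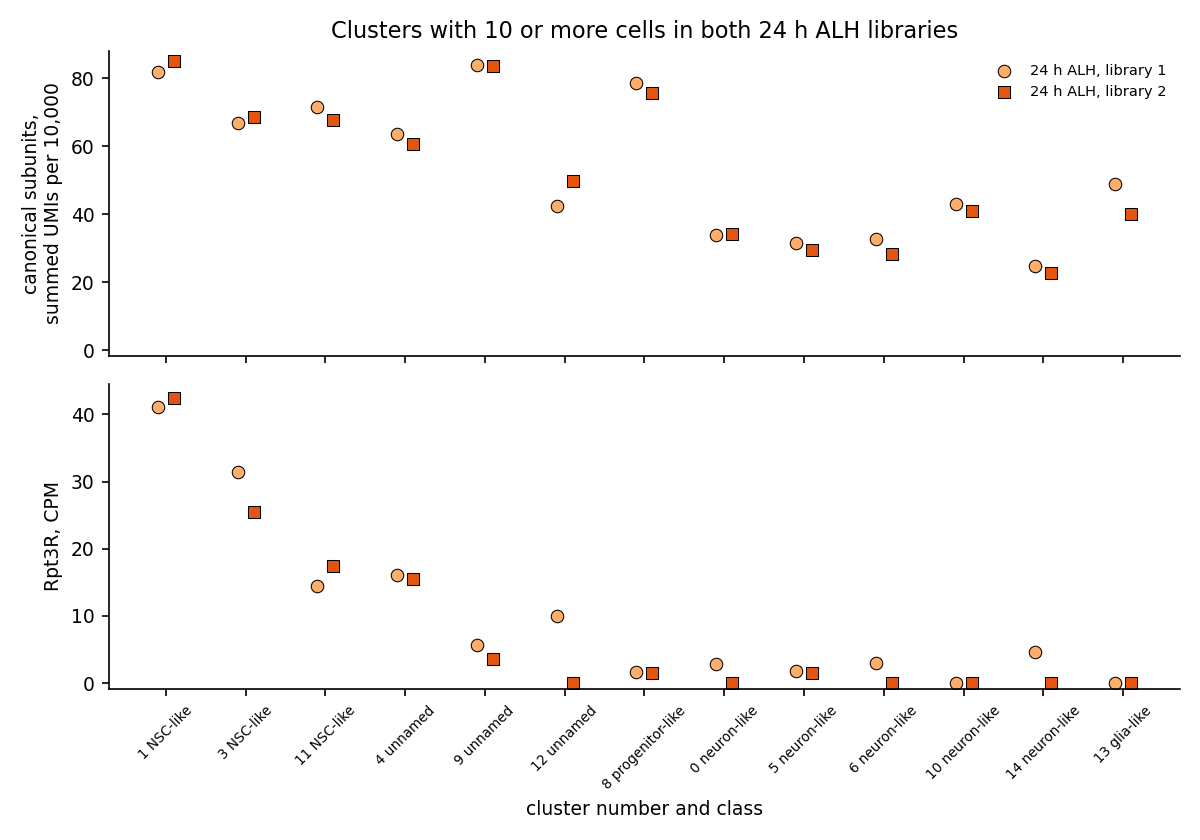
Summed canonical subunits in UMIs per 10000 (top) and *Rpt3R* in CPM (bottom) for each cluster with 10 or more cells in both 24 h ALH libraries. *Rpt3R* was highest in the *PCNA*-led NSC-like cluster 1, at 41.1 and 42.5 CPM, and near 0 in progenitor-like cluster 8, whose canonical subunits were at 78.7 and 75.8 per 10000.

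The 19 genes listed around the proteasome moved partly with it. In NSC-like cells 9 of 19 fell at stage 17 and 1 rose, where 17.0% and 17.4% of all genes did, with a median of -0.86. Those that fell included *Pomp*, the chaperone that assembles the core, at 257 and 378 CPM against 895 and 881 CPM (-1.65 ± 0.26), *Uch-L5*, a deubiquitinase bound to the regulatory particle, at 72.1 and 30.6 CPM against 199.96 and 200.27 CPM (-2.47 ± 0.30), and *Sem1*, a small lid subunit that the naming rule does not catch, at 124 and 81.7 CPM against 225 and 195 CPM (-1.38 ± 0.24). The others were *REG* (a core activator), *Usp14* (a deubiquitinase), *Uba1* (the ubiquitin-activating enzyme), and *TER94*, *Npl4* and *p47* (the segregase that pulls ubiquitinated proteins from complexes, and its cofactors). For *Usp14* the first stage 17 library, at 103 CPM, lay above the 24 h ALH libraries, at 98.3 and 95.7 CPM. *maf-S*, the partner of the factor *cnc*, was higher at stage 17, at 566 and 381 CPM against 188 and 181 CPM (1.05 ± 0.18). *cnc*, related to the factors that induce proteasome genes in mammals, stood at 41.2 and 91.9 CPM against 86.9 and 86.3 CPM (-0.34 ± 0.30, edgeR adjusted p = 0.40), with overlapping stages.

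The shuttle receptors *Rad23* and *Ubqn* and the polyubiquitin genes *Ubi-p5E* and *Ubi-p63E* were not called in NSC-like cells. In neuron-like cells 8 of the 19 fell (18.2% of all genes) and none rose: *Uch-L5*, *p47*, *cnc*, *Npl4*, *Pomp*, *rngo*, *REG* and *Uba1*. The class comparison at stage 17 called 9 higher in NSC-like cells and 2 lower (18.1% and 25.4% of all genes), *PI31*, a regulator of proteasome assembly and transport, and *Ubi-p5E*. That at 24 h ALH called 15 higher (41.7% of all genes), and 1, *Ubi-p5E*, lower. In the interaction *PI31*, *Usp14*, *Rad23* and *Ubqn* were called below 0 (5.72% of all genes) and none above.

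Heat stress genes also differed between the stages. The summed level of the 14 listed (*Hsp22* at 0 in both classes) was 33.8 and 29.7 UMIs per 10000 in the stage 17 NSC-like sums and 86.5 and 90.7 in the larval ones, and 64.5 and 28.4 against 66.6 and 69.0 in neuron-like sums. Of the 12 tested, 7 fell at stage 17 in NSC-like cells (17.0% of all genes) and 1, *DnaJ-1*, rose, with a median of -1.46. In neuron-like cells 4 fell (18.2% of all genes) and none rose, with a median of 0.20, where 12 of 13 core subunits fell. Their part in the results was not tested.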

How the data were processed

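The authors deposited raw UMI counts per gene and cell for each of the 4 libraries, made with Cell Ranger 3 and the dm6 build per the submitters' processing notes; the annotation was not given in the sources used here. No cell annotation by the authors was used. The limits for a kept cell were 200 to 6000 detected genes and no more than 5% of UMIs from mitochondrial genes. They were integrated with Seurat 5.3.0 (canonical correlation, 2000 features, 30 dimensions) and clustered at resolution 0.5. A cluster was named from at least 3 markers, each with a UMI in at least 25% of its cells, by a rule set with the clusters in view, so class names were rebuilt here.

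Counts were summed per library and class (10 or more cells) and tested with edgeR 4.0.16 (quasi-likelihood, TMM, filterByExpr, robust) in R 4.3.3, with Benjamini-Hochberg adjustment over all genes tested and a threshold of 0.05. Stage comparisons had no block. Class comparisons and the interaction were fitted on all sums with the library as a block. With 2 libraries a stage, p-values of the stage comparisons rest on the spread between these libraries. For the class comparisons and the interaction the block takes out that spread. Their p-values rest on how the class difference varied between libraries of the same stage. Log2 fold changes are given ± SE. They were fitted to counts with TMM scaling, which the CPM values do not include. A log2 fold change can therefore differ from the ratio of the CPM beside it, as for *Rpt3*, *Rpt6* and *Prosbeta7* in NSC-like cells. Intervals are exact binomial (95%) or Poisson and, like the limit of 3 counts for a count of 0, cover counting error only.

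The alternatives were RLE scaling, no filter, DESeq2 1.42.0, cells thinned to 1000 UMIs, gene gates, resolution 1.0, leaving out the 5 to 15 cells a library that Scrublet called doublets (kept otherwise), and leaving out each library. The replicate number was also added as a block to the stage comparisons, and the library block was taken out of the others. Equal weight per cell and leaving out the *PCNA*-led cluster were chosen after seeing the data. On simulated counts with a log2 change of 2, 64.0% of changed genes were recovered for the NSC-like stage comparison, 97.0% for the neuron-like one, 59.7% and 100% for the class comparisons at stage 17 and 24 h ALH, and 67.2% for the interaction.

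The members and lists were chosen with earlier results of these data known. Genes named with values were the protease subunits, the ubiquitin receptors and *Rpn11*, the highest and lowest member of each group by NSC-like level, the member with the largest called change in each group and comparison, those called in the interaction, and paralogs with 3 or more UMIs. Values of *Prosalpha1R* and of individual pathway genes were added after their values were seen. Gene positions are those of the Ensembl BDGP6 annotation. Promoter motifs were not analysed here.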

Additional observations from a re-analysis of the deposited data

Results flagged for a closer look

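For 4 of 31 subunits the class difference was itself called different between the stages by edgeR's interaction test. *Prosbeta3* had a larger NSC excess at stage 17 than at 24 h ALH, by 1.84 on the log2 scale. *Rpn10* (-1.66), *Rpn12* (-1.38) and *Rpt6* (-1.02) had a smaller one at stage 17. Of all genes tested, 8.93% were called above 0 and 5.72% below, so the members' share is near that of all genes. None of the 4 was called on thinned cells or without either 24 h ALH library.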

How the results depend on the processing

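In NSC-like cells the 27 subunits called lower at stage 17 became 2 on cells thinned to 1000 UMIs, where *Prosbeta7* turned to 0.080, and 9 to 30 with each library left out. The 16 of the neuron-like comparison became 5 to 29 with each library left out. The 16 called higher in NSC-like cells at stage 17 became 8 thinned, 10 with gene gates, 9 without the *PCNA*-led cluster and 4 to 23 with each library left out. In the interaction, the 1 above 0 became 0 thinned, at resolution 1.0 and with no library block. The 3 below 0 became 5 with no filter, 0 thinned, 14 at resolution 1.0, 6 without the *PCNA*-led cluster and 1 with no library block. With each library left out the median interaction of the canonical subunits ran from -0.69 to -0.33. The share of all genes called under each alternative is not given, so these counts cannot be told apart from a general change in power. The cause of these changes was not tested.

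The summed level of NSC-like cells (UMIs per 10000) was 25.3 with gene gates and 44.2 with equal weights at stage 17, against 37.1, and 74.9 thinned and 75.3 with equal weights at 24 h ALH, against 77.7. In neuron-like cells at 24 h ALH it was 31.7 thinned, 43.4 with gates and 31.4 with equal weights, against 32.6.

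Libraries with the same replicate number did not deviate together (correlation -0.04 in NSC-like and 0.04 in neuron-like sums). The stage 17 pair also differed in chemistry version, so this cannot show whether the numbers pair the libraries. With the replicate number as a block the stage comparisons called 23 and 19 subunits lower. The stage 17 NSC-like sums, from 27 cells a library, limit every comparison that uses them.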
